A study of Mus musculus with 2 samples.

Results

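The SLAM family of immune receptors and its adaptor proteins were followed in mouse splenic natural killer (NK) cells, as 7 genes chosen by symbol among the 32285 genes of the deposited matrices. Slamf6, Slamf7, Cd244a and Ly9 encode receptors, Cd48 encodes a ligand of the same family, and Sh2d1a and Sh2d1b1 encode adaptors. NK cells had been sorted from spleens by flow cytometry for droplet-based sequencing of transcript 3' ends. One library came from control mice, described as normal in the series' design, and 1 from mice under dietary restriction (DR). The labels used here give no strain, age, sex, number of mice, pooling, length of the diet or sort gate. With 1 library per group there was no replicate, so a difference between the libraries cannot be told apart from a difference between animals or preparations. No test was run, and every interval below is at 95% and covers counting error only.

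SLAM receptors sit on blood cells and mostly bind a copy of themselves on a neighbouring cell. CD244, also called 2B4, is the exception, since it binds CD48, which is held in the membrane by a lipid anchor and has no signalling tail of its own. The tails of these receptors recruit the small adaptors SAP, encoded by Sh2d1a, and EAT-2, encoded by Sh2d1b1, and in NK cells the adaptors are known to set whether a receptor activates or restrains killing. NK cells mature in the spleen from cells with CD27 through cells with both CD27 and CD11b, the product of Itgam, to cells with CD11b alone.

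The receptor and ligand genes lie side by side. In the GENCODE M21 annotation of GRCm38, chromosome 1 holds Cd244a at chr1:171559193-171609746 on the plus strand, Ly9 at chr1:171588624-171607410 on the minus strand, Slamf7 at chr1:171632403-171653035 on the minus strand, Cd48 at chr1:171682009-171705258 on the plus strand and Slamf6 at chr1:171917515-171953170 on the plus strand. From the start of Cd244a to the end of Slamf6 the cluster spans 394 kb and also holds Slamf1 and Cd84, which gives 7 family genes. Sh2d1b1 lies apart from them at chr1:170277320-170286769 on the plus strand, next to its paralog Sh2d1b2 at chr1:170232749-170253608. Sh2d1a is X-linked, at chrX:42502453-42529330 on the plus strand. All 18787 bp of Ly9 lie inside the annotated span of Cd244a on the other strand, and whether the counting used strand is not given in the sources used here, so reads of these 2 genes may be mixed in part. For Sh2d1b1 and Sh2d1b2, 0 of 451 windows of 50 bases in the last 500 bases of the longest transcript of either gene matched the other exactly. Sh2d1b2 itself was near the floor, at 0.668 CPM in the control and 0.498 CPM in the DR library among NK-like cells.

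**Figure D1:**
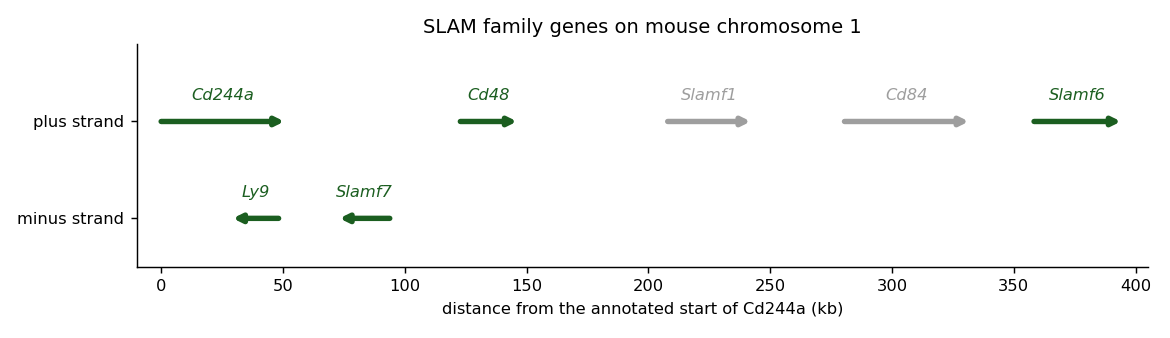
Annotated SLAM family genes on mouse chromosome 1, drawn to scale as arrows from start to end; the x axis is the distance in kb from the annotated start of Cd244a and the rows are the strands. Green genes are described here and grey genes are neighbours; Ly9 lies wholly inside the span of Cd244a on the opposite strand.

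Promoter sequences from RefSeq (GRCm38.p6) matched 5 of the 7 genes, and Ly9 and Sh2d1a had no entry. The 250 bases before the start are shown for Slamf6 and Cd48, the pair whose levels ran in opposite directions over NK maturation. They lie at chr1:171917212-171917461 and chr1:171681742-171681991, both on the plus strand, and read 5′ to 3′. Capitals mark matches on either strand to any of 6 motifs.

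Slamf6: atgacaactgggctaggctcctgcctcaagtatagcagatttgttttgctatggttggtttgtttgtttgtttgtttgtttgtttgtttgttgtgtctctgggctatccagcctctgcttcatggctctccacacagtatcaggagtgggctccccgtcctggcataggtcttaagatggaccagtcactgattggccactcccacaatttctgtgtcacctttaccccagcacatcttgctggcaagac

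Cd48: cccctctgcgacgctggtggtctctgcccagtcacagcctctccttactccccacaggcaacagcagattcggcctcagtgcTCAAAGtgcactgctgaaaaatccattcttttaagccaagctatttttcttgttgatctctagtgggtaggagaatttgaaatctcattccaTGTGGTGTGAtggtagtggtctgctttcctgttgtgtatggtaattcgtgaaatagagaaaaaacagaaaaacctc

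The motifs searched were GTGTGA (T-box), CTTTGA (TCF and LEF), TGTGGT (RUNX), AGGAAG (ETS), TGANTCA (AP-1) and CAGGTG (ZEB). The Slamf6 window, which lies in an intron of the annotated gene Gm37065, held no match. The Cd48 window overlaps an exon of the annotated gene A630035G10Rik. It held the TCF and LEF motif on its minus strand, starting 168 bases before the start of the gene. It also held the RUNX motif 76 and the T-box motif 72 bases before the start, which share 2 bases. The T-box motif also lay in the windows of Slamf7 and Sh2d1b1, and the RUNX motif in that of Sh2d1b1. The Slamf7 window, at chr1:171649000-171649249, lies inside the annotated span of Slamf7 and overlaps an exon and UTR of that gene. It is thus not clear of the gene's annotated transcripts. In neither library did Slamf7 or Sh2d1b1 reach the size limit used below between Cd27-only and Itgam-only cells. Among 32851 promoter windows of the same length, 12.3% held the T-box motif, 13.8% the TCF and LEF motif, 14.0% the RUNX motif, 29.5% the ETS motif, 6.7% the AP-1 motif and 17.2% the ZEB motif. A match is a run of letters and no evidence of binding.

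The control library held 5702 barcodes and 44526828 UMIs, and the DR library 6287 barcodes and 42134212 UMIs. After filtering, 5235 control and 5796 DR cells remained, and 12 barcodes were found among the remaining cells of both libraries. Cells were clustered without the 7 genes and named from marker lists, and a name ending in -like states only that. NK-like cells made up 90.4% of the control and 78.0% of the DR cells (4734 and 4522 cells). The others were mainly ILC1-like cells (291 and 403), B-like cells (117 and 448) and T-like cells (4 and 302). All 8 markers of the NK list lay above 20 CPM in NK-like cells of both libraries, but the clusters were named from this list at the same limit. In ILC1-like cells of both libraries all 8 were above 20 CPM too, and 7 were in DR T-like cells. The 8 summed to 20549 and 18130 CPM in NK-like, 4750 and 5234 CPM in ILC1-like and 651 CPM in DR T-like cells. DR NK-like cells were shallower, with a median of 5454.5 UMIs against 7128.5. They also had a higher median mitochondrial share, at 2.42% against 1.61%. Their part in the differences between the libraries was not tested. Levels are counts per 1000000 UMIs (CPM): the UMIs of a gene over all UMIs of the same cells.

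Across cell classes each gene had its own distribution, which is shown in the plot of levels by class. Class comparisons are a description, since the classes came from the same counts, although the 7 genes were left out of the clustering. Slamf6, a homotypic receptor also known as Ly108, was mainly a B and T cell transcript in these libraries. It stood at 187 CPM (171 to 205) in DR T-like cells. B-like cells held 145 CPM (125 to 167) in the control and 147 CPM (136 to 160) in the DR library. NK-like cells followed at 13.5 CPM (12.3 to 14.7) in the control and 26.7 CPM (24.8 to 28.7) in the DR library. ILC1-like cells were lowest, at 6.60 CPM (3.84 to 10.6) and 10.4 CPM (7.11 to 14.7). The control T-like class had too few cells for a level.

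Slamf7, the receptor CRACC, was highest in ILC1-like cells, at 311 CPM (289 to 333) in the control and 290 CPM (271 to 310) in the DR library. NK-like cells held 203 CPM (199 to 208) and 125 CPM (121 to 129), and none of these 4 intervals except the ILC1-like pair overlapped. B-like cells held 42.3 and 48.5 CPM, with overlapping intervals, and DR T-like cells 21.2 CPM. The B-like class also held plasma cell markers, 4 genes that summed to 792 CPM in the control and 2107 CPM in the DR library. The part of plasma cells in its Slamf7 level was not tested. Ly9, the homotypic receptor CD229, was found in all 4 of these classes. Its ILC1-like levels were 184 CPM (168 to 201) in the control and 126 CPM (114 to 140) in the DR library, its NK-like levels 121 and 86.8 CPM, its B-like levels 86.1 and 69.7 CPM, and its DR T-like level 65.2 CPM.

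Cd244a was higher in NK-like and ILC1-like than in B-like and T-like cells. It stood at 261 CPM (256 to 266) in the control and 238 CPM (232 to 244) in the DR library among NK-like cells, and at 255 CPM (236 to 275) and 264 CPM (246 to 283) in ILC1-like cells, so the control pair overlapped. B-like cells had 10.0 and 12.2 CPM and DR T-like cells 6.83 CPM. A small myeloid-like class of 19 DR cells held 193 CPM (140 to 260). Its ligand Cd48 was present in each of these 4 classes: 409 and 321 CPM in NK-like, 354 and 311 CPM in ILC1-like, 176 and 171 CPM in B-like and 165 CPM in DR T-like cells, with control before DR in each pair.

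The adaptors separated NK-like from ILC1-like cells. Sh2d1a stood at 194 CPM (190 to 199) in the control and 223 CPM (218 to 229) in the DR library among NK-like cells, but at 45.8 CPM (37.9 to 54.9) and 39.0 CPM (32.3 to 46.6) in ILC1-like cells. DR T-like cells held 131 CPM (117 to 145) and B-like cells 2.31 and 4.00 CPM. Sh2d1b1 was at 51.0 and 45.6 CPM in NK-like cells and at 30.3 and 26.7 CPM in ILC1-like cells. In T-like cells a single Sh2d1b1 UMI was counted, and B-like cells held 2.31 and 2.25 CPM. T-like cells thus carried transcripts of the adaptor SAP at 131 CPM with 0.379 CPM of the adaptor EAT-2, whereas NK-like cells carried both.

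**Figure D2:**
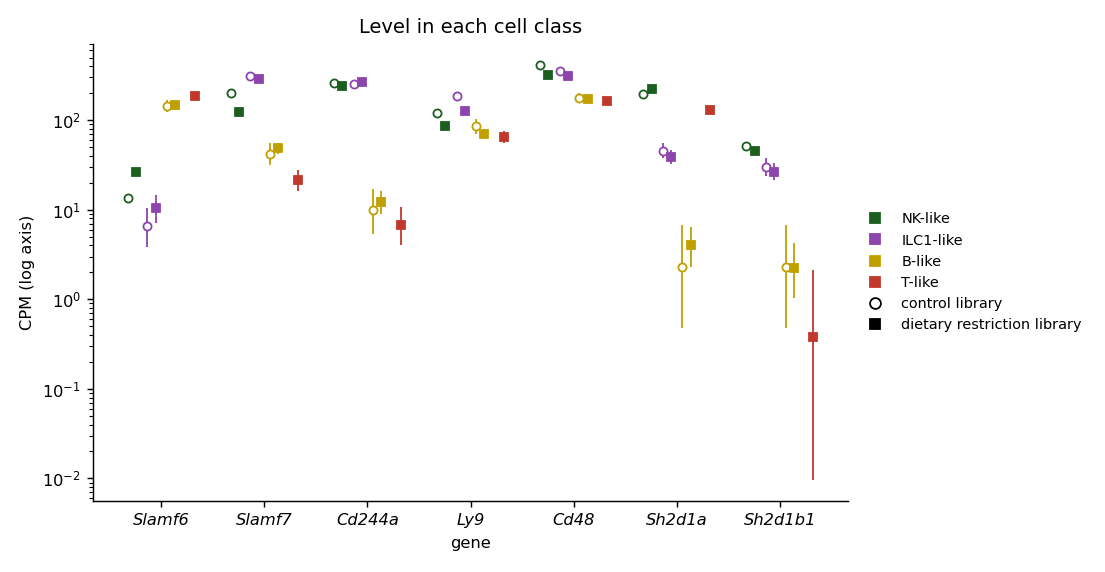
Level of each gene (x axis) in CPM on a log y axis for NK-like, ILC1-like, B-like and T-like cells; open circles are the control and filled squares the DR library, and bars are 95% Poisson intervals. Slamf6 is highest in B-like and T-like cells, Slamf7 and Ly9 in ILC1-like cells and Sh2d1a in NK-like cells; the 4 control T-like cells are not drawn.

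Droplets also pick up free RNA, so the share of cells with a UMI was set against classes that should lack the gene. Cd244a was seen in 80.4% and 71.1% of NK-like cells, control before DR, but in 9.40% and 7.14% of B-like cells. With each cell thinned to 2000 UMIs, which left out 182 control and 79 DR NK-like cells and 4 and 6 B-like cells, the shares were 40.4% and 39.1% against 0.885% and 1.81%. Sh2d1a was seen in 65.5% and 64.1% of NK-like and 2.56% and 2.90% of B-like cells, or 29.5% and 33.9% against 0.885% and 0.452% after thinning. Sh2d1b1 was seen in 31.0% and 22.9% of NK-like cells, 1.71% and 2.01% of B-like cells and 0.331% of DR T-like cells, or in 9.40% and 8.91% of NK-like against 0.885% and 0.679% of B-like cells after thinning. Median depths were 7128.5 and 5454.5 UMIs in NK-like, 8581 and 6864.5 in B-like and 8494 in DR T-like cells. The Slamf7 transcripts of B-like cells were not in the proportion of NK RNA: there were 4.23 Slamf7 UMIs per Cd244a UMI in control and 3.96 in DR B-like cells, against 0.780 and 0.525 in NK-like cells. For Slamf6, B and T cells are the classes with the highest levels. The 7 B cell markers summed to 25.4 CPM in the control and 87.7 CPM in the DR library among NK-like cells, against 8218 and 7900 CPM in B-like cells. At the ratio of Slamf6 to these markers in B-like cells, that amount carries 0.447 and 1.63 CPM of Slamf6. The 6 T cell markers summed to 10.4 and 22.2 CPM in NK-like cells and to 2458 CPM in DR T-like cells, and carried 1.7 CPM of Slamf6 into DR NK-like cells by the same reckoning. Over NK-like cells as a whole these amounts are below the 13.5 and 26.7 CPM of Slamf6 counted. They were a larger part in cells with neither Cd27 nor Itgam, where the B cell markers carried 1.78 of 14.4 CPM in the control and 5.44 of 14.7 CPM in the DR library, and the T cell markers a further 1.18 CPM in DR. Plasma cell markers, which summed to 65.7 and 138 CPM in NK-like cells, were left out of this reckoning, so it may understate the amount carried. An NK-like cluster with plasma cell transcripts, described below, held 54 of the 751 Slamf6 UMIs of DR NK-like cells.

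Within NK-like cells, stages were read from UMIs of Cd27 and Itgam, with at least 1 UMI counting as present. The Cd27-only stage held 664 control and 927 DR cells, the stage with both 1096 and 964, the Itgam-only stage 2240 and 1565, and 734 and 1066 cells had neither. The stages followed the stage markers: all 6 immature markers were lower and all 7 mature markers higher in Itgam-only than in Cd27-only cells of both libraries. Calls rest on size alone: a gene counts as called where its CPM is at least 25% higher or 20% lower and the interval of the ratio leaves out 1. Only genes whose mean over the compared groups reached 20 CPM were counted.

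Slamf6 was lower at each later stage. In the control library it stood at 30.7 CPM (26.7 to 35.3) in Cd27-only cells, 17.3 CPM (14.8 to 19.9) in cells with both and 3.53 CPM (2.67 to 4.58) in Itgam-only cells. In the DR library the same order read 55.0 CPM (49.7 to 60.7), 29.6 CPM (25.8 to 33.9) and 8.07 CPM (6.27 to 10.2). The 3 stages overlapped in neither library. The log2 ratio of Itgam-only over Cd27-only cells was -3.12 (-3.58 to -2.69) in control, where the mean was below 20 CPM and the gene was left out of the count, and -2.77 (-3.16 to -2.39) in DR. Slamf6 UMIs were found in 17.6% and 23.7% of Cd27-only cells and in 1.92% and 3.19% of Itgam-only cells, or in 5.4% and 7.95% against 0.685% and 1.23% after thinning to 2000 UMIs. Among Itgam-only cells, those with a UMI of Klrg1 or Cx3cr1, markers of late NK cells, held 1.98 CPM in the control and 3.52 CPM in the DR library. Those without held 9.48 and 12.1 CPM.

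Cd48 ran the other way. It stood at 295 CPM (282 to 309) in Cd27-only, 385 CPM (373 to 397) in both and 471 CPM (460 to 481) in Itgam-only control cells, a log2 ratio of 0.67 (0.60 to 0.74) from first to last. In the DR library the steps were 274 CPM (262 to 287), 307 CPM (294 to 320) and 358 CPM (345 to 371), with a log2 ratio of 0.38 (0.30 to 0.47). No neighbouring stages overlapped in either library. Its partner Cd244a was higher in Itgam-only cells of the control library, at 286 CPM (277 to 294) against 224 CPM (212 to 235), a log2 ratio of 0.35 (0.27 to 0.44). In the DR library its stages lay at 228, 226 and 254 CPM and the log2 ratio was 0.16 (0.06 to 0.25), short of the limit.

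Slamf7 was lowest in the stage with both genes, and Ly9 varied little over the stages. Control Slamf7 was at 210 CPM in Cd27-only, 180 CPM in both and 214 CPM in Itgam-only cells. DR Slamf7 was at 143, 111 and 118 CPM in the same order, and the last 2 intervals overlapped. The step from Cd27-only cells to those with both had a log2 ratio of -0.37 (-0.50 to -0.23) in DR and counted as lower, where 3.41% of genes did. Among DR Itgam-only cells, those with a UMI of Klrg1 or Cx3cr1 held 134 CPM of Slamf7 against 103 CPM in those without, a log2 ratio of 0.38 (0.20 to 0.56) called higher, where 2.80% of genes were. In the control library the same comparison gave 219 against 196 CPM, and its log2 ratio of 0.16 (0.04 to 0.29) did not reach the limit. Ly9 lay between 115 and 129 CPM over the 4 control stages and between 78.7 and 92.5 CPM over the 4 DR stages. Of the adaptors, Sh2d1a was lower in control Itgam-only cells, at 170 CPM (163 to 176) against 217 CPM (206 to 229), a log2 ratio of -0.36 (-0.45 to -0.26). In DR cells the values were 212 and 233 CPM, with a log2 ratio of -0.14 (-0.23 to -0.04). Sh2d1b1 lay between 45.7 and 54.1 CPM over the 4 control stages and between 41.4 and 48.9 CPM over the DR stages.

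**Figure D3:**
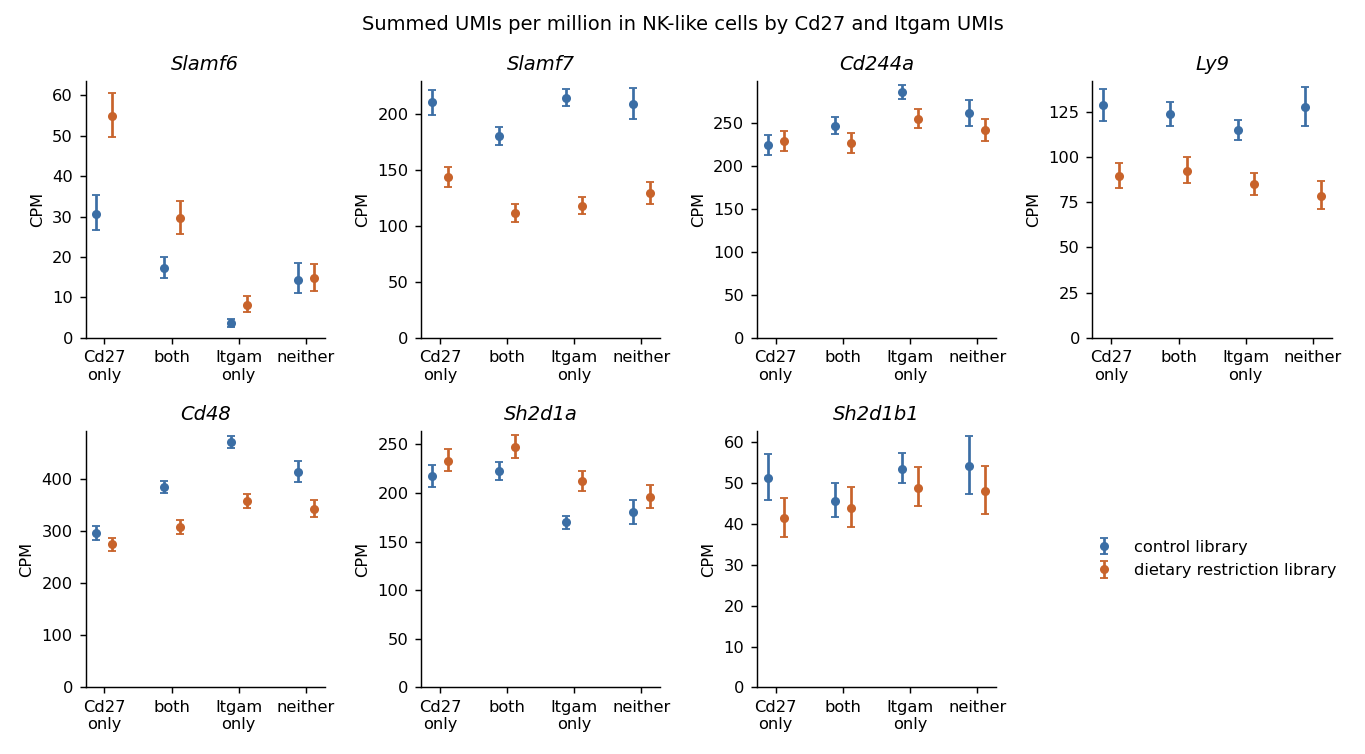
Level in CPM (y axis, from 0) of each gene in NK-like cells by stage (x axis), with control in blue and DR in orange and 95% Poisson intervals as bars. Slamf6 steps down and Cd48 steps up from Cd27-only to Itgam-only cells in both libraries, while Slamf7 and Ly9 are lower in the DR library at every stage.

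By the size rule, Itgam-only over Cd27-only cells gave 2 genes higher (Cd244a and Cd48) and 1 lower (Sh2d1a) of the 6 with enough UMIs in the control library, where 33.0% of 5872 genes were called in either direction, 21.3% higher and 11.7% lower. In the DR library 1 was higher (Cd48) and 1 lower (Slamf6) of 7, where 24.8% of 5811 genes were called, 17.6% higher and 7.19% lower. Slamf6 passed the minimum there only through Cd27-only cells, at 55.0 CPM against 8.07 CPM in Itgam-only cells. Its call is thus not comparable with the share of all genes. The genes' median log2 ratio was 0.04 in control and -0.08 in DR, against 0.10 and 0.11 over all genes tested. Relative to that shift of all genes, the Cd48 ratio was 0.57 in control and 0.27 in DR under median-of-ratios scaling, and the second value no longer reached the limit. Cd244a in control came to 0.26 by the same scaling, also short of it. Cd27-only cells were deeper than Itgam-only cells, with medians of 9133.5 against 6712.5 UMIs in the control and 7063 against 5029 in the DR library. When each cell was thinned to 2000 UMIs before its stage was read, the Slamf6 ratio was -2.24 in the control and -2.73 in the DR library. The Cd48 ratio was then 0.34 and 0.14, and the second value did not reach the limit.

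Clusters of NK-like cells, also made without the 7 genes, gave a second view of the same cells. In 7 clusters with at least 50 cells in each library, Slamf6 was highest in a cluster led by Batf3, Gpr55 and Ccdc136 in the control library (52.4 CPM, against 80.3 CPM in DR). That cluster's 10 leading genes include the T cell receptor complex genes Cd3d and Cd3g. Next in control came the cluster led by Socs2, Kbtbd11 and Emb, at 29.1 and 40.4 CPM. The clusters led by Cx3cr1 and by Gm10522, a gene model, held 3.06 and 2.41 CPM in control and 1.73 and 4.02 CPM in DR. These last 2 clusters divided by library, since the first held 2584 control and 369 DR cells and the second 461 and 2137. A cluster of 71 control and 53 DR cells led by Hist1h3c, Jchain and Slpi held Slamf6 at 20.6 and 94.5 CPM, with Cd244a at 137 and 22.8 CPM. Jchain, Igkc and Mzb1, which are plasma cell transcripts, are among its leading genes.

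Slamf7 was highest in the cluster led by the early response genes Egr3, Nr4a1 and Egr1, at 369 CPM in the control and 280 CPM in the DR library, against 153 to 219 CPM in control and 78.8 to 195 CPM in DR in the other 6. A small cluster led by the interferon-induced genes Cxcl10, Ifit1 and Rsad2 held 26 control and 11 DR cells. It had Slamf7 at 298 and 314 CPM and the adaptor Sh2d1b1 at 117 CPM (79.6 to 166) and 88.0 CPM (35.4 to 181), against 51.0 and 45.6 CPM in all NK-like cells. The DR interval rests on 7 UMIs and holds the level of all DR NK-like cells. Of the 7 clusters, the Batf3-led one had the lowest control level of Cd48 (248 CPM) and the Cx3cr1-led one the highest (478 CPM). Smaller clusters led by Ube2c and by Lyz2, with 127 and 37 control cells, held 503 CPM (437 to 575) and 506 CPM (420 to 604).

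**Figure D4:**
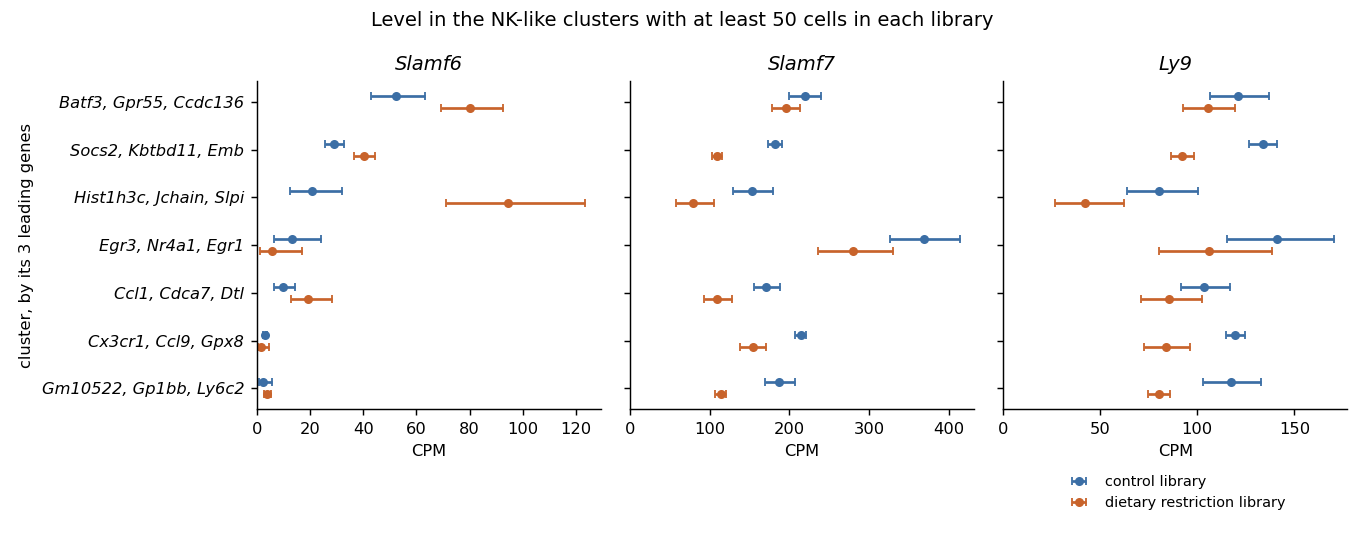
Level in CPM (x axes) of Slamf6, Slamf7 and Ly9 in the 7 NK-like clusters with at least 50 cells in each library, named by their 3 leading genes; control is blue, DR is orange and bars are 95% Poisson intervals. Slamf7 and Ly9 have lower values in the DR library in every one of these clusters, and are called lower in 6 and 4 of them. The share of all genes called lower in the clusters was not counted. Slamf6 is above 20 CPM in control in 3 of them.

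Between the libraries, DR NK-like cells held about 2-fold more Slamf6 transcript and less Slamf7, Ly9 and Cd48. Slamf6 stood at 13.5 CPM in the control and 26.7 CPM in the DR library, a log2 ratio of 0.99 (0.82 to 1.15). Slamf7 stood at 203 and 125 CPM, a log2 ratio of -0.70 (-0.76 to -0.65). For Ly9 the levels were 121 and 86.8 CPM and the log2 ratio -0.48 (-0.55 to -0.41). Cd48 had 409 and 321 CPM and a log2 ratio of -0.35 (-0.39 to -0.31). The intervals of control and DR did not overlap for any of these genes.

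The remaining genes stayed within the size limit. Cd244a had a log2 ratio of -0.13 (-0.18 to -0.09), Sh2d1b1 one of -0.16 (-0.27 to -0.06) and Sh2d1a one of 0.20 (0.15 to 0.25). Thus 1 of 7 genes was called higher and 3 lower, where 11.2% of 5834 genes were called in either direction, 175 of them higher and 477 (8.18%) lower. The median log2 ratio of the 7 was -0.16 and that of all genes tested -0.07. Slamf6 entered the count narrowly, with a mean close to the minimum of 20 CPM. It passed only through its DR level of 26.7 CPM, since its control level of 13.5 CPM was below that minimum. Its call as higher therefore adds no support. Cd48 had a log2 ratio of -0.28 under median-of-ratios scaling, which is short of the limit.

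The lower Slamf7 level was seen in each NK stage. Its log2 ratio was -0.55 (-0.67 to -0.44) in Cd27-only cells, -0.70 (-0.82 to -0.58) in cells with both, -0.86 (-0.96 to -0.76) in Itgam-only cells and -0.70 (-0.84 to -0.55) in cells with neither. Ly9 was also called lower in all 4, at -0.52, -0.42, -0.44 and -0.70 in the same order. The shares of genes called lower in these stages were 11.0%, 10.4%, 8.68% and 9.30%. Cd48 was called lower in cells with both (-0.33) and in Itgam-only cells (-0.40), while Cd27-only cells (-0.11) and those with neither (-0.27) did not reach the limit. In all 7 clusters with enough cells Slamf7, Ly9 and Cd48 had log2 ratios below 0, from -0.96 to -0.17 for Slamf7, -0.94 to -0.20 for Ly9 and -1.15 to -0.09 for Cd48. The lowest value of each range came from the Hist1h3c-led cluster with plasma cell transcripts, and over the other 6 clusters the lowest were -0.74, -0.55 and -0.37. Slamf7 was called lower in 6 of the 7 clusters, Ly9 in 4 and Cd48 in 2, the Cx3cr1-led and the Hist1h3c-led. Sh2d1b1 was also below 0 in 6 clusters. The share of all genes below 0 or called lower in the clusters was not counted, so these counts have no background beside them. The Batf3-led cluster had the smallest Slamf7 difference, at -0.17 (-0.36 to 0.02), an interval that holds 0.

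The Slamf6 difference varied with the stage, and the mix of stages differed between the libraries. Cd27-only cells were 20.5% of NK-like cells in the DR and 14.0% in the control library, and Itgam-only cells 34.6% and 47.3%. Presence was read from 1 UMI, and DR NK-like cells were shallower, with a median of 5454.5 against 7128.5 UMIs. The part of depth in these shares, and in the Klrg1 or Cx3cr1 shares below, was not tested. Within stages the Slamf6 log2 ratio was 0.84 (0.59 to 1.09) in Cd27-only cells and 0.78 (0.49 to 1.07) in cells with both, where 4.10% and 4.32% of genes were called higher. In cells with both, Slamf6 passed the 20 CPM minimum only through its DR level, at 29.6 CPM against 17.3 CPM in control. That call is thus not comparable with the share of all genes. In Itgam-only cells the log2 ratio was 1.19 (0.66 to 1.73) at levels below the 20 CPM minimum, and the more mature Itgam-only cells with a UMI of Klrg1 or Cx3cr1 made up 36.7% of NK-like cells in the control but 15.7% in the DR library. Cells with neither gene had 14.4 and 14.7 CPM, a log2 ratio of 0.03 (-0.46 to 0.53). In these cells the B cell markers summed to 101 CPM in the control and 292 CPM in the DR library and the plasma cell markers to 79.2 and 442 CPM, and their part in this ratio was not tested. The stages were not alike in maturity between the libraries: the median DR over control log2 ratio of the immature and mature stage markers with enough UMIs was 0.21 and -0.09 in Cd27-only cells, 0.94 and -0.51 in cells with both, and 1.49 and -0.42 in Itgam-only cells. Their part in the Slamf6 ratios was not tested. With the 4 stages weighted equally the log2 ratio was 0.70. Within clusters it was 0.47 (0.25 to 0.70) in the Socs2-led cluster, 0.62 (0.27 to 0.97) in the Batf3-led cluster and 2.20 (1.43 to 3.01) in the Hist1h3c-led cluster with plasma cell transcripts. It was 0.99 (0.15 to 1.84) in the Ccl1-led cluster. In the Cx3cr1-led, Gm10522-led and Egr3-led clusters, at -0.82, 0.74 and -1.18, the intervals held 0. Without the clusters led by cell cycle genes, which include the Hist1h3c-led one, the ratio was 0.93, and over cells with no UMI of the B or T markers, Jchain or Il7r it was 0.78.

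Other cell classes did not mirror NK-like cells for each gene. In ILC1-like cells Slamf7 had a log2 ratio of -0.10 (-0.24 to 0.04), an interval that does not overlap that of NK-like cells. Whether the libraries differ more in NK-like than in ILC1-like cells could not be tested with 1 library each. Ly9 was called lower there too, at -0.54 (-0.74 to -0.34), and was 1 of 6 genes called, where 14.0% of 6007 genes were called and 9.52% were called lower. In B-like cells 0 of 4 genes with enough UMIs were called, where 13.7% of 5295 genes were. Slamf6 had a log2 ratio of 0.03 (-0.21 to 0.27) in B-like cells. All these ratios share the same 2 libraries.

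**Figure D5:**
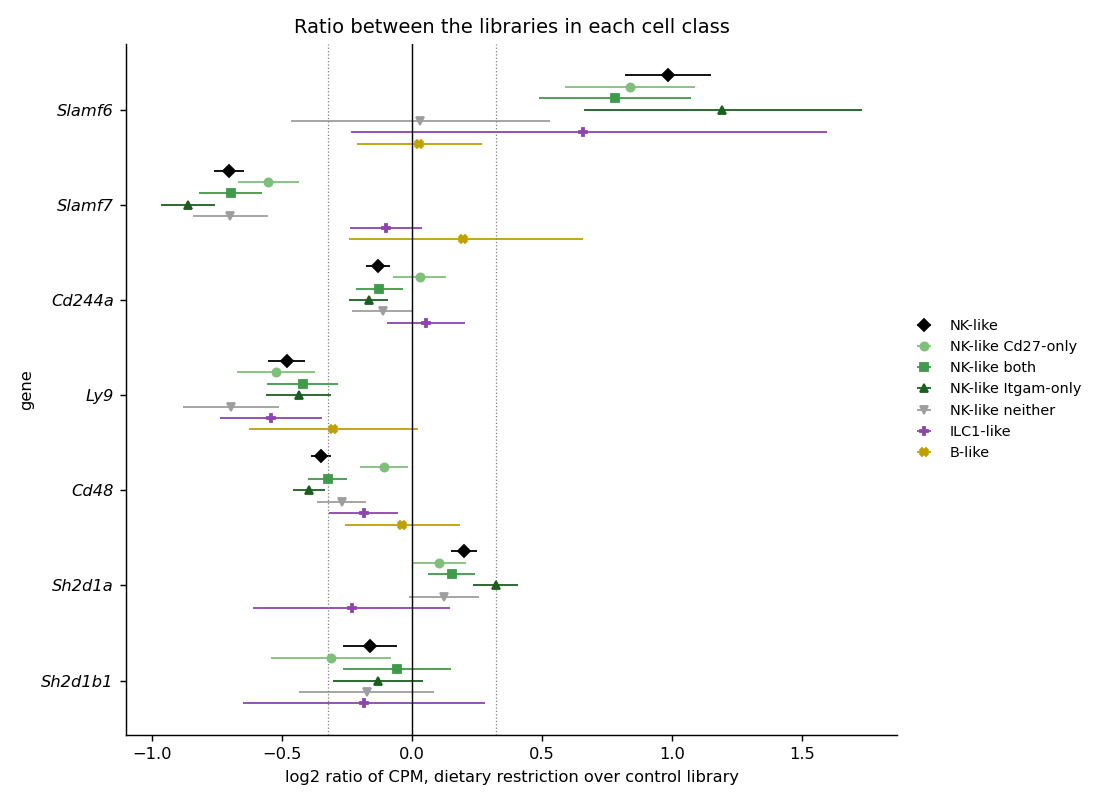
Log2 ratio of DR over control CPM (x axis) for each gene (y axis) in NK-like cells, their 4 stages, ILC1-like and B-like cells; bars are 95% intervals for counting error, the solid line marks 0 and the dotted lines the size limit of 25% higher or 20% lower. Slamf7 and Ly9 lie to the left in all NK stages, whereas Slamf7 in ILC1-like cells lies near 0; B-like values are not drawn for Cd244a, Sh2d1a and Sh2d1b1, which have few UMIs there.

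Signalling partners of the family were read from a list of 19 genes, of which 13 passed the CPM minimum in NK-like cells. Between the libraries 0 were called higher and 2 lower, Vav3 at 29.9 CPM in the control and 21.1 CPM in the DR library (log2 ratio -0.50) and Plcg2 at 54.9 and 43.3 CPM (-0.34), where 8.18% of all genes were called lower. Vav3 is a guanine nucleotide exchange factor and Plcg2 is a phospholipase. The Src family kinases Fyn (-0.13) and Lck (-0.28) did not reach the limit. Neither did Vav1 (-0.22), Prkcq (-0.18), Grb2 (-0.25), Pik3cd (-0.27) and the inhibitory kinase Csk (-0.06). The same held for Inpp5d, which encodes the phosphatase SHIP1 (-0.03), Ptpn6, which encodes SHP-1 (-0.23), and Ptpn11, which encodes SHP-2 (-0.24). The median over the 13 was -0.23, against -0.07 over all genes. From Cd27-only to Itgam-only cells Plcg2 (0.47) and Prkcq (0.33) were called higher in the control library, and Pik3cd (0.34) in the DR library, where 21.3% and 17.6% of all genes were. The other receptors Slamf1, Slamf8 and Slamf9 had at most 0.853 CPM in NK-like cells of either library, while Slamf1 reached 22.3 and 20.2 CPM in B-like cells. Plcg1 and Sh3bp2 were below the minimum, with 1.28 and 15.2 CPM in DR NK-like cells.

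How often pairs of the 7 genes were seen in the same NK-like cell was set against the product of their separate shares, at 2000 UMIs per cell. The product lay outside the interval of the observed share for 4 of 42 values (21 pairs in each library). In the control library Slamf7 and Sh2d1a were seen together in 8.26% of cells (7.48 to 9.10), below a product of 9.14%, and Slamf6 and Cd48 in 0.813%, below 1.12%. In the DR library Slamf6 and Cd244a were seen together in 1.08%, below 1.45%, while Ly9 and Sh2d1b1 reached 1.76%, above 1.38%. The receptor Cd244a and its ligand Cd48 were seen together in 23.2% of control and 18.1% of DR cells, where the products are 22.8% and 18.3%. The adaptors Sh2d1a and Sh2d1b1 were seen together in 2.79% and 2.86% of cells, where the products are 2.77% and 3.02%. At this depth most transcripts of a cell are not sampled.

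Profiles over 12 groups (the 4 NK stages, ILC1-like and B-like cells of each library) were compared with those of all other genes by Pearson's r on log2 CPM. The groups share 2 libraries and their depth, so r is only a description. Slamf6 was most like the ribosomal protein genes Rpl36 (r = 0.99), Rpl32 (0.98) and Rpl7 (0.98). Slamf7 was most like Dnajc3 (0.98), Gabarapl2 (0.97) and Hltf (0.97), and Ly9 most like Ddx58 (0.97), Dtx3l (0.96) and Mydgf (0.96). Cd244a was most like Ncr1 (0.9985), which encodes the NK receptor NKp46, Efhd2 (0.9975) and Pxn (0.9973). Cd48 was most like Stard3 (0.99), Axin1 (0.99) and Tmbim6 (0.99). Sh2d1a was most like Trdc (0.997), Eya1 (0.99) and Il10rb (0.99), and Sh2d1b1 most like Klre1 (0.996), Atp5h (0.995) and Blvra (0.995). Over the 8 NK groups alone the values for Ncr1, Trdc and Klre1 were lower, at 0.76, 0.82 and 0.75, and that for Eya1 was 0.42.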

How the data were processed

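Per the file headers, the deposited matrices hold raw UMI counts by gene and barcode and were written by Cell Ranger 5.0.1. The submitters' processing notes give 2.1.1 and mm10 instead, which the sources do not settle. The 7 genes, the 19 partner genes and the marker lists were chosen with earlier results of these data known.

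Cells needed 500 or more genes and no more than 10% mitochondrial UMIs, and 215 control and 167 DR barcodes failed. The automatic Scrublet threshold (scanpy 1.11.5) marked 2 of 5487 and 0 of 6120 cells, which was taken as a failure, so the top-scoring 0.8% for each 1000 cells were removed (252 and 324 cells), a rule chosen after the data were seen. Both libraries were clustered together on 2000 variable genes without the 7 genes (30 principal components, 15 neighbours, Leiden resolution 0.6). A name needed 3 markers and 50% of its list at 20 CPM, limits set after the files were opened. Low-content or mixed clusters stayed unnamed (88 and 102 cells).

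Summed counts are given as CPM with exact Poisson intervals, ratios with exact conditional binomial and shares with exact Clopper-Pearson intervals. The calling rule was tested on simulated data. Named genes were the 7, the partner list, 3 genes of most similar profile for each, and stage markers (1 partner gene is not reported here); leading genes of clusters were named after their values were seen. Alternatives covered scaling, filters, gating, depth and the size limit.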

Additional observations from a re-analysis of the deposited data

How the results depend on the processing

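With the size limit raised to 1.5, 111 of all genes were called between the libraries in place of 652, and with the minimum lowered to 5 CPM 1355 were. The higher and lower calls were 175 and 477 as reported, 315 and 266 under median-of-ratios scaling, and 310 and 270 without ribosomal and mitochondrial genes in the total. Of the 7 genes, 2 were called between the libraries at the limit of 1.5, 2 in cells with neither Cd27 nor Itgam alone, and 2 over cells with no UMI of the B or T markers, Jchain or Il7r, in place of 4. Between stages, 1 was called in control at the limit of 1.5 in place of 3, and in DR 1 at the limit of 1.5, 1 after single-cell gating, 1 after thinning and 1 over cells with no such UMI, in place of 2. Slamf6 left several of these counts because its mean fell below 20 CPM. In cells with neither Cd27 nor Itgam, both calls were lower, and 9.30% of all genes were called lower there. For the gated, thinned and marker-free cells, and for the stage counts, the share of all genes called is not given here. These counts thus only describe how the calls moved with the setting. No gene called in these comparisons changed sign under any setting tried. Among genes not called, Sh2d1a had a log2 ratio between the libraries of -0.10 with clusters weighted equally in place of 0.20, and the control stage ratios of Slamf7 (0.03) and Sh2d1b1 (0.06) were -0.07 and -0.04 under median-of-ratios scaling. The last cell selection, leaving out clusters of low RNA content and weighting clusters equally were chosen after seeing the data. No paired analysis was possible because each group has 1 library. Depth limits Slamf6 in Itgam-only and ILC1-like cells and all T-like values in control.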
